A study of Canis lupus familiaris with 29 samples.

Results

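The FOS, JUN and related immediate early genes were followed across cyst and monolayer formation by MDCKII cells, a dog kidney epithelial cell line. The 10 genes FOS, FOSB, FOSL1, FOSL2, JUN, JUNB, EGR1, IER2, DUSP1 and MYC were chosen by name from the 24223 genes of the expression files. Each name had 1 row, and all 10 genes passed the filter for testing, which kept the 11774 genes that reached 1 FPKM in 2 or more libraries. FPKM is the number of sequenced fragments scaled for transcript length and for the size of the library.

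Proteins of the FOS family (FOS, FOSB, FOSL1, FOSL2) pair with proteins of the JUN family to form AP-1, a transcription factor that binds DNA as a dimer. The JUN family holds JUN, JUNB and JUND, which was not among the genes chosen. FOS, FOSB, EGR1, IER2 and DUSP1 are immediate early genes, whose transcription is switched on within minutes by serum, growth factors or stress through the MAP kinase ERK and serum response factor, with no need for new protein. FOSL1 and FOSL2 are slower members of the family, and their level commonly follows sustained ERK activity. EGR1 is a zinc finger transcription factor, IER2 a nuclear protein induced early after growth stimulation, DUSP1 a phosphatase that switches MAP kinases off, and MYC a transcription factor of growth and ribosome production.

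RNA was sequenced in 29 libraries in 13 groups, each of MDCKII cells kept in medium with fetal bovine serum. Of the knockdown (KD) lines, DENND5A-KD cells were taken at day 0, on inserts (2D) at day 4 and on inserts at day 7, and AVL9-KD cells at day 0 and on inserts at day 4 (n = 2 each). Wild-type cells were taken at day 0, when they were to be seeded (n = 4), from cysts grown on matrigel (3D) after 24 h and on days 3, 5, 8 (2 libraries per time) and 14 (1 library), and from transwell inserts at day 4 and day 11 (n = 3 each). DENND5A and AVL9 belong to the DENN domain family, regulators of RAB proteins in membrane traffic. DENND5A-KD samples are numbered 1 and 2 and AVL9-KD samples 1 and 4, here called lines, without a label that tells if a number is a clone, a hairpin or a guide. The samples hold no control line made in the same way, so an effect of the knockdown cannot be told apart from an effect of making the lines. Nothing in the labels ties a replicate to a culture of its own, and the p-values here therefore reflect library-to-library spread that may be technical. In bulk RNA, fewer expressing cells and less RNA per cell cannot be told apart.

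The targeted genes were lower in their knockdown lines. DENND5A read 1.95 ± 0.0975 FPKM (SD, n = 2) in DENND5A-KD cells and 5.62 ± 0.895 FPKM (SD, n = 4) in wild-type cells at day 0, and AVL9 read 6.46 ± 1.07 FPKM (SD, n = 2) in AVL9-KD cells and 23.0 ± 0.752 FPKM (SD, n = 4) in wild-type cells. Total FPKM per library ran from 276017 to 441332. Absolute read depth is unknown, and relative depth, read approximately from the steps between low FPKM values, ran from 0.444 to 1.66. The day 14 library and replicate 1 of 4 other wild-type groups (day 0, 2D day 4, and cysts of days 3 and 8) differed from the others in which genes were listed at 0. In these 5 libraries TIMM13, whose product escorts proteins inside mitochondria, had an FPKM of 0, while the other 24 libraries had 30.9 to 397 FPKM. They are called the libraries that stood apart. The 7 of 9 epithelial markers with a row summed to 448 to 873 FPKM per library, and CDH16, kidney-specific cadherin, ran from 0.0345 to 68.6 FPKM. No fibroblast, endothelial or leukocyte marker reached 1 FPKM in any library (15 of 16 had a row).

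FOS, the founding member of its family, was high in wild-type day 0 cells and low in every other group. It read 141, 127, 155 and 179 FPKM in the day 0 libraries, then 14.1 and 14.0 at 24 h, 34.1 and 24.8 at day 3, 23.7 and 17.2 at day 5, 11.5 and 17.9 at day 8 and 30.0 at day 14 on matrigel. On inserts wild-type cells had 21.7, 23.1 and 17.5 FPKM at day 4 and 26.1, 24.2 and 28.0 FPKM at day 11. None of the other 25 libraries, knockdown day 0 cells included, reached the lowest wild-type day 0 value. The other 25 ran from 11.5 to 48.3 FPKM. In the order of mean FOS, 10 of 12 pairs of neighbouring groups overlapped, and wild-type day 0 did not overlap the next group, DENND5A-KD day 0.

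FOSB, a close relative of FOS, showed the same separation with a larger range. The day 0 wild-type libraries had 21.6, 15.1, 42.4 and 36.5 FPKM. Cysts had 0.533 and 0.490 FPKM at 24 h, 0.695 and 0.452 at day 3, 0.302 and 0.127 at day 5, 0.367 and 0.279 at day 8 and 0.433 at day 14. Cells on inserts had 0.734, 1.09 and 0.721 FPKM at day 4 and 1.58, 1.62 and 0.779 at day 11. Every later wild-type library lay below every day 0 library. FOSB reached 1 FPKM in 14 of 29 libraries, so its log2 differences, taken on FPKM + 1, understate the change.

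EGR1 was low at 24 h, as FOS was, and higher in the later cysts. FOS was also higher at days 3, 5 and 14 than at 24 h, and DUSP1 at each later day. Of the later cysts only day 8 was tested against 24 h. EGR1 read 92.4, 114, 104 and 133 FPKM in wild-type day 0 cells. The 24 h cysts had 27.8 and 15.9 FPKM. Later cysts had 56.9 and 43.0 at day 3, 75.4 and 51.4 at day 5, 49.3 and 43.8 at day 8 and 117 at day 14. The day 14 library lay within the range of day 0, and it was the only later wild-type library of 15 above the lowest day 0 value. On inserts EGR1 had 59.7, 65.8 and 41.8 FPKM at day 4 and 58.2, 57.2 and 58.9 FPKM at day 11.

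DUSP1 and IER2 were also highest at wild-type day 0. DUSP1 read 10.9, 12.6, 13.02 and 17.1 FPKM at day 0, 2.85 and 2.47 at 24 h, 5.03 and 3.00 at day 3, 3.00 and 3.38 at day 5, 3.29 and 3.23 at day 8 and 4.69 at day 14 on matrigel. On inserts it had 2.89, 3.90 and 2.57 FPKM at day 4 and 4.25, 3.25 and 4.77 FPKM at day 11. IER2 read 35.4, 33.5, 28.1 and 34.7 FPKM at day 0, 22.7 and 21.2 at 24 h, 22.4 and 19.8 at day 3, 18.2 and 14.8 at day 5, 14.5 and 11.0 at day 8 and 22.8 at day 14. Neither gene reached the lowest day 0 value in any of the 15 later wild-type libraries, which ran up to 5.03 FPKM for DUSP1 and 22.8 FPKM for IER2. IER2 had 17.3, 19.8 and 14.1 FPKM on inserts at day 4 and 20.6, 18.2 and 19.4 FPKM at day 11.

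JUN and FOSL2 separated by culture form. JUN read 49.5, 67.1, 86.9 and 84.1 FPKM in wild-type day 0 cells, 28.6 and 30.2 at 24 h, 20.1 and 15.5 at day 3, 18.4 and 20.4 at day 5, 18.8 and 12.6 at day 8 and 25.4 at day 14 on matrigel. On inserts it had 45.9, 50.4 and 41.5 FPKM at day 4 and 60.4, 54.6 and 46.5 FPKM at day 11. All 9 cyst libraries lay below all 6 insert libraries for JUN. FOSL2 had 32.8, 41.3, 35.0 and 34.9 FPKM at day 0, 30.9 and 26.9 at 24 h, 17.4 and 15.5 at day 3, 13.6 and 16.9 at day 5, 14.9 and 11.1 at day 8 and 13.5 at day 14 on matrigel. On inserts FOSL2 had 35.5, 37.1 and 33.6 FPKM at day 4 and 57.5, 55.0 and 41.6 FPKM at day 11, again above every cyst library. FOSB was the third gene whose cyst and insert libraries did not overlap, by a small margin (up to 0.695 FPKM in cysts and from 0.721 FPKM on inserts). How many of all genes were separated in this way was not counted. Of all genes, 35.2% were called lower and 10.9% higher in day 8 cysts than on inserts at day 11. JUNB, a weaker activator than JUN, read 54.0, 51.0, 45.0 and 54.1 FPKM at day 0, and its lowest group mean was 26.9 ± 1.10 FPKM (SD, n = 2) in day 8 cysts. On inserts JUNB had 34.3, 39.9 and 24.9 FPKM at day 4 and 31.8, 29.1 and 29.1 FPKM at day 11. Its highest library held 3.24 times its lowest over all 29, against 335 times for FOSB.

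FOSL1 and MYC were still high 24 h after seeding on matrigel and low from day 3. FOSL1 read 25.6, 22.6, 19.4 and 12.9 FPKM at wild-type day 0, 13.9 and 14.2 at 24 h, 2.09 and 2.04 at day 3, 0.790 and 0.627 at day 5, 0.546 and 0.451 at day 8 and 0.313 at day 14. The 24 h libraries lay within the day 0 range and the later ones lay below it. On inserts FOSL1 had 4.97, 3.74 and 2.36 FPKM at day 4 and 2.82, 1.56 and 3.17 FPKM at day 11. MYC read 126, 98.7, 86.1 and 82.3 FPKM at day 0, 70.0 and 63.6 at 24 h, 18.4 and 22.9 at day 3, 22.6 and 25.0 at day 5, 21.0 and 20.8 at day 8 and 29.1 at day 14 on matrigel. On inserts it had 36.1, 35.6 and 24.0 FPKM at day 4 and 40.6, 37.7 and 37.3 FPKM at day 11. No later wild-type library reached the lowest MYC value of day 0. For this separation, in MYC as in FOS, FOSB, DUSP1 and IER2, the share over all genes was not counted.

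**Figure D1:**
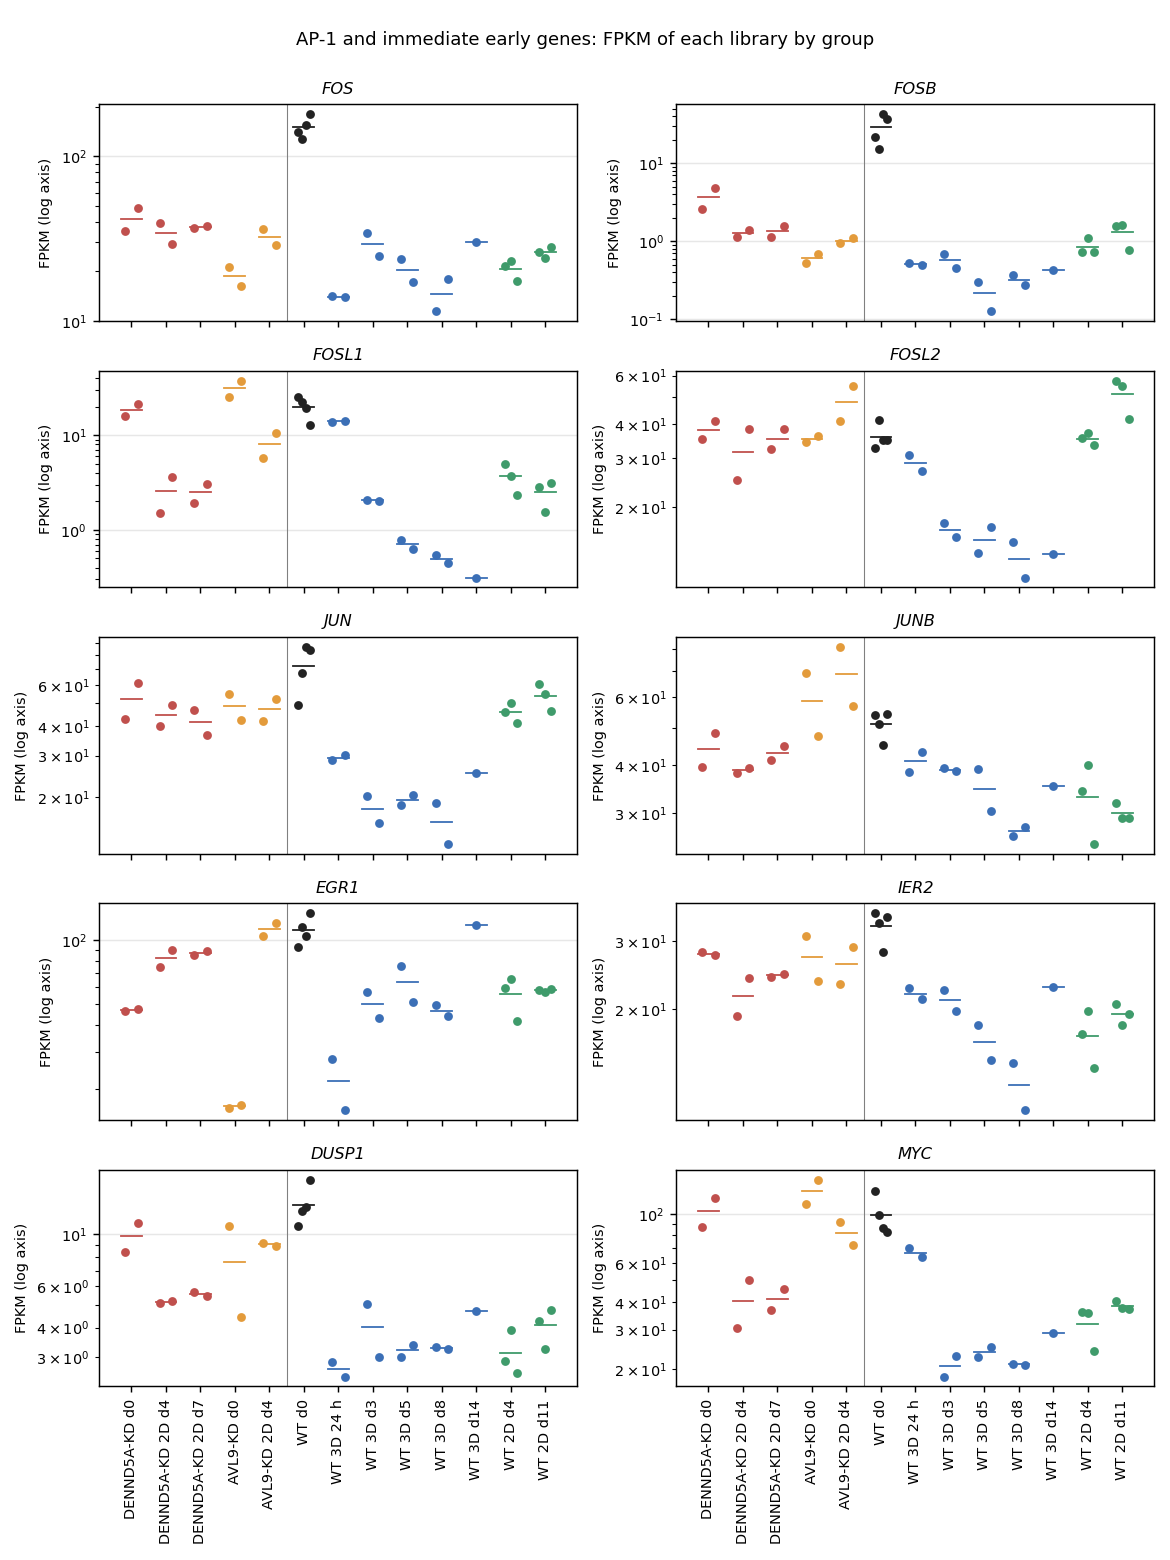
FPKM of each library (points, log axis) and the group mean (line) for the 10 genes, with knockdown groups left of the grey line and wild-type groups right of it. FOS and FOSB of wild-type day 0 stand above all 25 other libraries, while FOSL1 and MYC are high in every day 0 group, knockdown or wild type.

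Changes were tested with limma on log2(FPKM + 1), with p-values adjusted by the Benjamini-Hochberg method over all 11774 genes. All comparisons with wild-type day 0 use the same 4 libraries, so they are not independent of each other. After 24 h on matrigel 5 of the 10 genes had fallen and none had risen. Of all genes tested, 0.561% fell in this comparison. The low FOS, FOSB, EGR1 and DUSP1 at 24 h were known when the 10 genes were chosen, so the 2 shares cannot be set against each other as a test. FOS was lower by 3.32 ± 0.20 (SE) on the log2 scale (adjusted p = 1.05e-09), FOSB by 4.20 ± 0.28, EGR1 by 2.33 ± 0.20, DUSP1 by 1.96 ± 0.23 and JUN by 1.23 ± 0.21. In mean FPKM the day 0 libraries held 10.7 times as much FOS and 56.4 times as much FOSB as the 24 h libraries. IER2 (-0.56 ± 0.15, adjusted p = 0.0649), MYC (-0.53 ± 0.21), FOSL1 (-0.45 ± 0.29), JUNB (-0.31 ± 0.17) and FOSL2 (-0.30 ± 0.17) did not pass. IER2 was called lower at 24 h after quantile normalization (-0.57, adjusted p = 0.0302) and after median-ratio scaling (-0.62, adjusted p = 0.0126). JUN lost its call when either 24 h library was left out (adjusted p = 0.115 and 0.0767) or when these groups were fitted alone (adjusted p = 0.155).

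From day 3 the fall on matrigel took in nearly all members. At day 3, 9 of 10 were lower, with 23.1% of all genes lower. JUNB missed the threshold there (-0.38 ± 0.17, adjusted p = 0.0696). At day 5 all 10 were lower, with 31.2% of all genes lower, and at day 8 again all 10, with 38% of all genes lower. The day 8 falls from day 0 were FOSB -4.39 ± 0.28, FOSL1 -3.78 ± 0.29, FOS -3.29 ± 0.20, MYC -2.16 ± 0.21, JUN -2.11 ± 0.21, DUSP1 -1.74 ± 0.23, FOSL2 -1.41 ± 0.17, IER2 -1.31 ± 0.15, EGR1 -1.23 ± 0.20 and JUNB -0.90 ± 0.17. The median gene differed by -0.13 at day 8, and relative to it the 10 genes still lay between -4.26 and -0.76. At day 5 the falls of JUNB and EGR1 rested on replicate 3, and without it they were -0.37 (adjusted p = 0.161) and -0.54 (adjusted p = 0.0773).

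On inserts most of the same genes fell, but FOSL2 did not. At day 4, 9 of 10 were lower than at day 0, with 29.6% of all genes lower, and FOSL2 did not differ past the test (-0.02 ± 0.15, adjusted p = 0.918). JUN was lower at day 4 by 0.61 ± 0.19 (adjusted p = 0.00796), but -0.42 with an adjusted p of 0.0624 after quantile normalization. At day 11, 8 were lower, with 23.7% of all genes lower, and FOSL2 was higher by 0.49 ± 0.15 (adjusted p = 0.00832), with 32.2% of all genes higher. The FOSL2 rise was 0.41 (adjusted p = 0.0533) without replicate 1 of day 11. FOS was lower at day 11 by 2.47 ± 0.17, FOSB by 3.60 ± 0.25, FOSL1 by 2.58 ± 0.26, MYC by 1.31 ± 0.18, EGR1 by 0.91 ± 0.18, JUNB by 0.75 ± 0.15 and IER2 by 0.73 ± 0.13, and DUSP1 averaged 4.09 FPKM at day 11 and 13.4 FPKM at day 0. JUN at day 11 was -0.38 ± 0.19 (adjusted p = 0.0841), but it passed without replicate 1 of day 0 (-0.55, adjusted p = 0.0114). Between day 11 and day 4 on inserts limma called 0 of the 10 genes, with 1 at an unadjusted p under 0.05 (FOSL2, 0.51 ± 0.16, adjusted p = 0.103), which passed without replicate 3 of day 11 (0.66, adjusted p = 0.0285).

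Within the cysts the genes split after 24 h. Of the 10 genes, 6 fell further by day 8 compared with 24 h, with 36.5% of all genes lower, and EGR1 alone rose, with 17.3% of all genes higher. EGR1 averaged 46.6 ± 3.85 FPKM at day 8 and 21.9 ± 8.41 FPKM at 24 h (SD, n = 2 each), a rise of 1.10 ± 0.23 (adjusted p = 0.000512). Without replicate 3 of 24 h the EGR1 rise was 0.72 (adjusted p = 0.0257), and without replicate 2 it was 1.49 (adjusted p = 0.000132). FOSL1 fell by 3.33 ± 0.34 and MYC by 1.63 ± 0.24, followed by FOSL2 (-1.11 ± 0.20), JUN (-0.89 ± 0.24), IER2 (-0.75 ± 0.17) and JUNB (-0.58 ± 0.20). FOS (0.03 ± 0.23), FOSB (-0.19 ± 0.32) and DUSP1 (0.22 ± 0.27) did not pass. The median gene was lower by 0.19, and JUNB lost its call after median-ratio scaling (-0.33, adjusted p = 0.116), as JUN did after quantile normalization (-0.53, adjusted p = 0.0804). JUN also lost it without replicate 2 of day 8 (-0.62, adjusted p = 0.0858), and JUNB without replicate 3 of 24 h (-0.50, adjusted p = 0.111) or replicate 1 of day 8 (-0.54, adjusted p = 0.0802).

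Day 8 cysts were set against day 11 insert cultures as the late stages of each form. Of the 10 genes, 7 were lower in cysts and none higher, with 35.2% of all genes lower. FOSL2 averaged 12.99 ± 2.71 FPKM in cysts (SD, n = 2) and 51.4 ± 8.56 FPKM on inserts (SD, n = 3), a difference of -1.90 ± 0.18 (adjusted p = 1.69e-07). JUN averaged 15.7 ± 4.38 FPKM in cysts and 53.8 ± 6.99 FPKM on inserts (-1.73 ± 0.22, adjusted p = 4.89e-06). FOSL1 (-1.20 ± 0.31), MYC (-0.85 ± 0.22), FOS (-0.82 ± 0.21), FOSB (-0.79 ± 0.30) and IER2 (-0.58 ± 0.16) were also lower. The median gene was lower by 0.20, and relative to it FOSL2 and JUN stood at -1.70 and -1.52. FOS (-0.57, adjusted p = 0.0529), FOSB and IER2 lost their calls after quantile normalization. FOS lost it also without replicate 1 of day 8 (-0.52, adjusted p = 0.0961), 1 of the libraries that stood apart, and IER2 without replicate 2 of day 8 (-0.39, adjusted p = 0.122). FOSB lost it without either day 8 library (adjusted p = 0.0896 and 0.15) and without replicate 1 or 2 of day 11 (adjusted p = 0.0963 and 0.101). Only 2 cyst libraries enter this comparison, and the days differ.

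**Figure D2:**
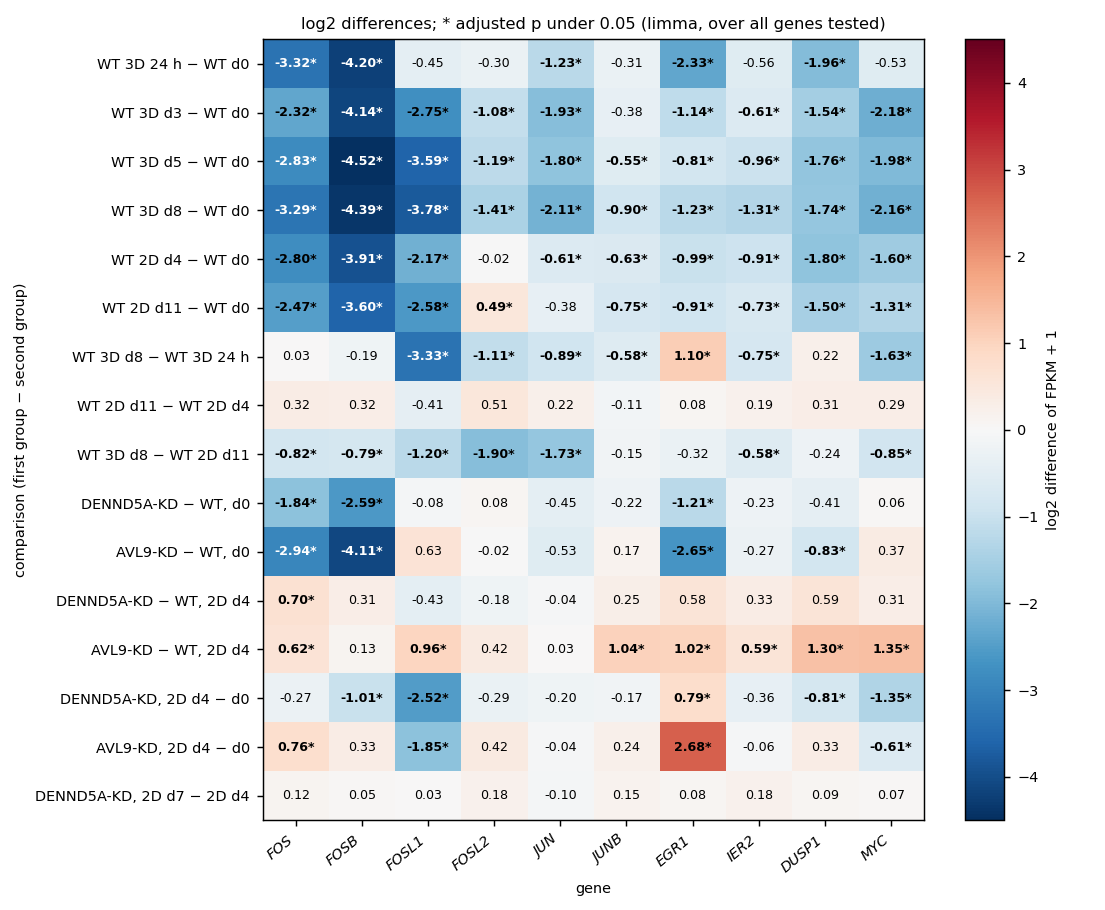
Log2 differences of FPKM + 1 (colour and number) of the 10 genes in 16 comparisons, first group minus second, with an asterisk where limma's adjusted p is under 0.05. FOSL2 is -1.41 in day 8 cysts but -0.02 and 0.49 on inserts at day 4 and day 11, and JUN is -2.11 in day 8 cysts but -0.61 and -0.38 on inserts.

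The single day 14 library has no replicate and was not tested. For 8 of the 10 genes it lay above both day 8 libraries, FOSL2 lay between them and FOSL1 below both. The share of all genes that lay above both was not counted. EGR1 was 2.51 times and FOS 2.05 times the day 8 mean. Day 8 replicate 1 and day 14 both stood apart from the other libraries, and against that replicate alone the ratios were 2.37 for EGR1, 2.62 for FOS and 0.573 for FOSL1.

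The knockdown lines at day 0 had low FOS, FOSB and EGR1, while FOSL1 and MYC showed no difference from wild-type cells that passed the test. FOS read 35.0 and 48.3 FPKM in DENND5A-KD cells and 21.3 and 16.3 FPKM in AVL9-KD cells, against 127 to 179 FPKM in wild-type cells. FOSB read 2.62 and 4.85 FPKM in DENND5A-KD cells and 0.520 and 0.691 FPKM in AVL9-KD cells, against 15.1 to 42.4 FPKM in wild-type cells. EGR1 read 46.5 and 47.7 FPKM in DENND5A-KD cells and 16.4 and 16.9 FPKM in AVL9-KD cells, against 92.4 to 133 FPKM in wild-type cells. In all 4 knockdown libraries each of the 3 genes lay below every wild-type day 0 library. The share of all genes separated in this way was not counted. The low immediate early genes of these cells were known when the members were chosen, so counts of members called at day 0 are a description.

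In DENND5A-KD cells at day 0, 3 of the 10 genes were lower than in wild type, with 2.25% of all genes lower. These were FOSB (-2.59 ± 0.28, adjusted p = 5.77e-06), FOS (-1.84 ± 0.20, adjusted p = 4.78e-06) and EGR1 (-1.21 ± 0.20, adjusted p = 0.000696). JUN (-0.45 ± 0.21), DUSP1 (-0.41 ± 0.23), IER2 (-0.23 ± 0.15), JUNB (-0.22 ± 0.17), FOSL1 (-0.08 ± 0.29), MYC (0.06 ± 0.21) and FOSL2 (0.08 ± 0.17) did not pass. All 3 calls held in each of the 6 fits that left out 1 library of these groups.

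In AVL9-KD cells at day 0, 4 genes were lower than in wild type, with 4.59% of all genes lower. FOSB differed by -4.11 ± 0.28 (adjusted p = 7.03e-09), FOS by -2.94 ± 0.20 (adjusted p = 5.84e-09), EGR1 by -2.65 ± 0.20 (adjusted p = 3.88e-08) and DUSP1 by -0.83 ± 0.23 (adjusted p = 0.0184). DUSP1 read 10.8 FPKM in line 1 and 4.43 FPKM in line 4, against 10.9 to 17.1 FPKM in wild type, and without line 4 the difference was -0.27 (adjusted p = 0.486) and without line 1 it was -1.39 (adjusted p = 0.000815). Without wild-type replicate 4 it was -0.71 (adjusted p = 0.0577). FOSL1 read 25.1 and 37.8 FPKM in AVL9-KD cells, against 12.9 to 25.6 FPKM in wild type, a difference of 0.63 ± 0.29 that did not pass (adjusted p = 0.14). MYC averaged 126 ± 22.8 FPKM in AVL9-KD cells (SD, n = 2), 102 ± 21.4 FPKM in DENND5A-KD cells (SD, n = 2) and 98.3 ± 19.8 FPKM in wild-type cells (SD, n = 4), and neither difference passed. The median gene was higher by 0.11 in AVL9-KD cells. JUN (-0.53 ± 0.21, adjusted p = 0.0865) and IER2 (-0.27 ± 0.15, adjusted p = 0.22) were called lower after quantile normalization (adjusted p = 0.0232 and 0.0336). JUN also passed without wild-type replicate 1 (-0.69, adjusted p = 0.0146).

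On inserts at day 4 AVL9-KD cells held more of most of these transcripts than wild type. Of the 10 genes, 7 were higher in AVL9-KD cells, with 18.7% of all genes higher. MYC read 91.6 and 72.6 FPKM in AVL9-KD cells, against 36.1, 35.6 and 24.0 FPKM in wild type, a difference of 1.35 ± 0.22 (adjusted p = 0.000278). DUSP1 read 9.17 and 8.96 FPKM in AVL9-KD cells, against 2.89, 3.90 and 2.57 FPKM in wild type (1.30 ± 0.24, adjusted p = 0.00108). JUNB read 80.9 and 56.9 FPKM in AVL9-KD cells, against 34.3, 39.9 and 24.9 FPKM in wild type (1.04 ± 0.18, adjusted p = 0.00056). EGR1 read 104 and 120 FPKM in AVL9-KD cells, against 59.7, 65.8 and 41.8 FPKM in wild type (1.02 ± 0.21, adjusted p = 0.00251). For these 4 genes both knockdown libraries lay above all 3 wild-type libraries, as they did for FOS, FOSL1, IER2 and FOSL2 (FOSL2 not called). How many of all genes were separated in this way was not counted.

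FOSL1 (0.96 ± 0.31, adjusted p = 0.0331), FOS (0.62 ± 0.21, adjusted p = 0.0374) and IER2 (0.59 ± 0.16, adjusted p = 0.0116) were also called higher in AVL9-KD cells. The median gene was higher by 0.19 in AVL9-KD cells, and after median-ratio scaling these 3 were not called, with adjusted p of 0.0749, 0.275 and 0.0913. With genotype and replicate number as a random block, wild-type numbers included, FOS had an adjusted p of 0.0535. FOS lost its call without AVL9-KD line 1 (0.47, adjusted p = 0.257) or wild-type replicate 3 (0.51, adjusted p = 0.15), and FOSL1 without AVL9-KD line 4 (0.58, adjusted p = 0.294) or wild-type replicate 2 or 3 (adjusted p = 0.0505 and 0.154). IER2 lost it without line 4 (0.43, adjusted p = 0.125) or wild-type replicate 3 (0.47, adjusted p = 0.0656). With limma fitted on these libraries alone none of the 7 genes was called, and the adjusted p ran from 0.0742 for DUSP1 to 0.195 for FOSL1. The epithelial markers summed to 799 to 873 FPKM in the AVL9-KD and 590 to 695 FPKM in the wild-type libraries, and their part in the result was not tested.

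DENND5A-KD cells on inserts at day 4 differed from wild type in 1 of the 10 genes. FOS was called higher, with 5.54% of all genes higher, at 39.2 and 29.5 FPKM in DENND5A-KD cells, against 21.7, 23.1 and 17.5 FPKM in wild type (0.70 ± 0.21, adjusted p = 0.0323). With genotype and replicate number as a random block, wild-type numbers included, its adjusted p was 0.0504, so that 0 of the 10 genes passed. Without line 1 it was 0.50 (adjusted p = 0.412), and without wild-type replicate 1 or 3 the adjusted p was 0.0592 and 0.104. EGR1 read 74.8 and 90.0 FPKM in DENND5A-KD cells, above the 41.8 to 65.8 FPKM of wild type, but did not pass (0.58 ± 0.21, adjusted p = 0.0925). At day 7 compared with day 4 on inserts limma called none of the 10 genes in DENND5A-KD cells, and none had an unadjusted p under 0.05, with differences of -0.10 to 0.18.

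**Figure D3:**
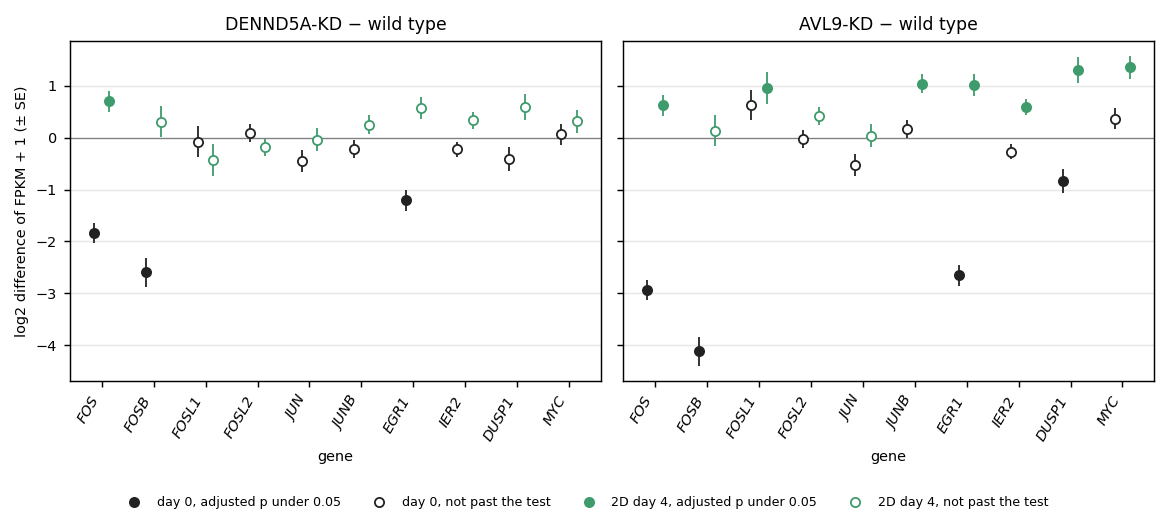
Log2 differences of FPKM + 1 (± SE) between knockdown and wild-type cells at day 0 (black) and on inserts at day 4 (green), filled where limma's adjusted p is under 0.05. FOS, FOSB and EGR1 lie far below 0 at day 0 in both panels, while at day 4 the AVL9-KD values of 7 genes lie above 0 and pass.

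Over the time course of the knockdown lines FOS and EGR1 did not follow the wild-type order. FOS in DENND5A-KD cells had 35.0 and 48.3 FPKM at day 0, 39.2 and 29.5 FPKM at day 4 and 36.7 and 37.7 FPKM at day 7, and the 3 ranges overlapped. EGR1 in these cells had 46.5 and 47.7 FPKM at day 0, 74.8 and 90.0 FPKM at day 4 and 84.7 and 88.9 FPKM at day 7. Both insert days lay above day 0 for EGR1. FOSL1 in DENND5A-KD cells had 16.2 and 21.2 FPKM at day 0, 1.51 and 3.59 FPKM at day 4 and 1.92 and 3.08 FPKM at day 7, so that the insert libraries lay far below day 0. MYC had 87.2 and 118 FPKM at day 0, 30.5 and 50.4 FPKM at day 4 and 36.9 and 45.9 FPKM at day 7, with the same order. In AVL9-KD cells FOSL1 had 5.82 and 10.5 FPKM at day 4 and 25.1 and 37.8 FPKM at day 0. MYC in these cells had 91.6 and 72.6 FPKM at day 4 and 110 and 142 FPKM at day 0, again without overlap.

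In DENND5A-KD cells 4 genes fell by day 4, with 22.2% of all genes lower, and EGR1 rose, with 20.1% of all genes higher. FOSL1 (-2.52 ± 0.34), MYC (-1.35 ± 0.24), FOSB (-1.01 ± 0.32) and DUSP1 (-0.81 ± 0.27) fell, EGR1 rose by 0.79 ± 0.23, and FOS did not pass (-0.27 ± 0.23, adjusted p = 0.366). FOSB did not pass without line 2 at day 0 (-0.67, adjusted p = 0.207) or line 1 at day 4 (-0.93, adjusted p = 0.0821), nor did EGR1 without line 2 at day 4 (0.66, adjusted p = 0.0945). DUSP1 was not called without line 2 at day 0 (-0.62, adjusted p = 0.168) or without line 1 or line 2 at day 4 (adjusted p = 0.0732 and 0.0761). FOSL2 passed as lower without line 2 at day 4 (-0.58, adjusted p = 0.0493).

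In AVL9-KD cells 2 genes fell by day 4 on inserts, with 22.8% of all genes lower, and 2 rose, with 31.1% of all genes higher. EGR1 averaged 112 ± 10.8 FPKM at day 4 and 16.7 ± 0.362 FPKM at day 0 (SD, n = 2 each), a rise of 2.68 ± 0.23 (adjusted p = 2.08e-08). FOS rose by 0.76 ± 0.23 (adjusted p = 0.00762), to 36.0 and 28.9 FPKM. FOSL1 fell by 1.85 ± 0.34 and MYC by 0.61 ± 0.24 (adjusted p = 0.0353). FOSL2 was 0.42 ± 0.20 (adjusted p = 0.0789). With a block for genotype and replicate number it passed (adjusted p = 0.0476 as a random block and 0.0456 as a fixed term). FOSL2 passed as well without line 1 at day 4 (0.62, adjusted p = 0.0328). FOS was not called without line 4 at day 0 (0.57, adjusted p = 0.0927) or line 1 at day 4 (0.61, adjusted p = 0.076). MYC was not called without line 4 at day 0 (-0.43, adjusted p = 0.237) or at day 4 (-0.45, adjusted p = 0.227), or after quantile normalization (-0.42, adjusted p = 0.0619). Without line 1 at day 0, DUSP1 passed as a rise (0.89, adjusted p = 0.00668), against 0.33 ± 0.27 with both lines.

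The difference of these changes from wild type was tested as an interaction. For DENND5A-KD cells 3 genes passed, with 1.15% of all genes passing in the same direction: FOSB (2.90 ± 0.41, adjusted p = 0.00162), FOS (2.53 ± 0.28, adjusted p = 0.000168) and EGR1 (1.78 ± 0.29, adjusted p = 0.00302). For AVL9-KD cells 4 passed, with 0.985% of all genes: FOSB (4.24 ± 0.41, adjusted p = 6.82e-06), EGR1 (3.67 ± 0.29, adjusted p = 4.19e-07), FOS (3.56 ± 0.28, adjusted p = 4.19e-07) and DUSP1 (2.13 ± 0.34, adjusted p = 0.00304). With genotype and replicate number as a random block 7 genes passed for AVL9-KD, adding JUNB (0.86, adjusted p = 0.0389), IER2 (0.85, adjusted p = 0.0217) and MYC (1.00, adjusted p = 0.048). DUSP1 was not called for AVL9-KD when limma was fitted on the compared groups alone (adjusted p = 0.128). After quantile normalization IER2 (0.81, adjusted p = 0.0404) and MYC (1.00, adjusted p = 0.04) passed for AVL9-KD, and after median-ratio scaling IER2 did (0.75, adjusted p = 0.0498). IER2 also passed without wild-type day 0 replicate 3, wild-type 2D day 4 replicate 2 or AVL9-KD 2D day 4 line 1 (adjusted p = 0.0407, 0.0303 and 0.0428), and JUNB without that wild-type 2D replicate or AVL9-KD 2D day 4 line 4 (adjusted p = 0.0468 and 0.0388). Each interaction holds the same wild-type day 0 libraries as the comparisons at day 0 and is not independent of them. FOSL1 and MYC did not pass in either line in the fit without a block, with interaction values of -0.35 ± 0.42 and 0.25 ± 0.30 for DENND5A-KD and 0.32 ± 0.42 and 0.98 ± 0.30 for AVL9-KD.

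The makeup of the FOS family changed with these shifts. FOS was 63.8 ± 3.02% (SD, n = 4) of the summed FPKM of the 4 FOS family genes in wild-type day 0 cells and FOSL2 15.5 ± 3.096%. In 24 h cysts FOSL2 made up 50.2 ± 2.56% and FOS and FOSL1 24.5% each (n = 2). By day 8 on matrigel FOS held 51.1 ± 12.9% and FOSL2 46.0 ± 12.2%, and on inserts at day 11 FOSL2 held 62.9 ± 5.52% (SD, n = 3). The summed FPKM was 236 ± 26.9 at day 0, 57.5 ± 2.76 at 24 h, 28.5 ± 1.70 in day 8 cysts and 81.3 ± 7.32 on inserts at day 11. In AVL9-KD day 0 cells FOSL1 held 36.2 ± 7.50% of a sum of 86.2 ± 6.90 FPKM, and in DENND5A-KD day 0 cells 18.3 ± 0.121% of 102 ± 18.7 FPKM (SD, n = 2 each), compared with 8.80 ± 3.12% in wild-type day 0 cells. These shares are a description and were not tested.

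**Figure D4:**
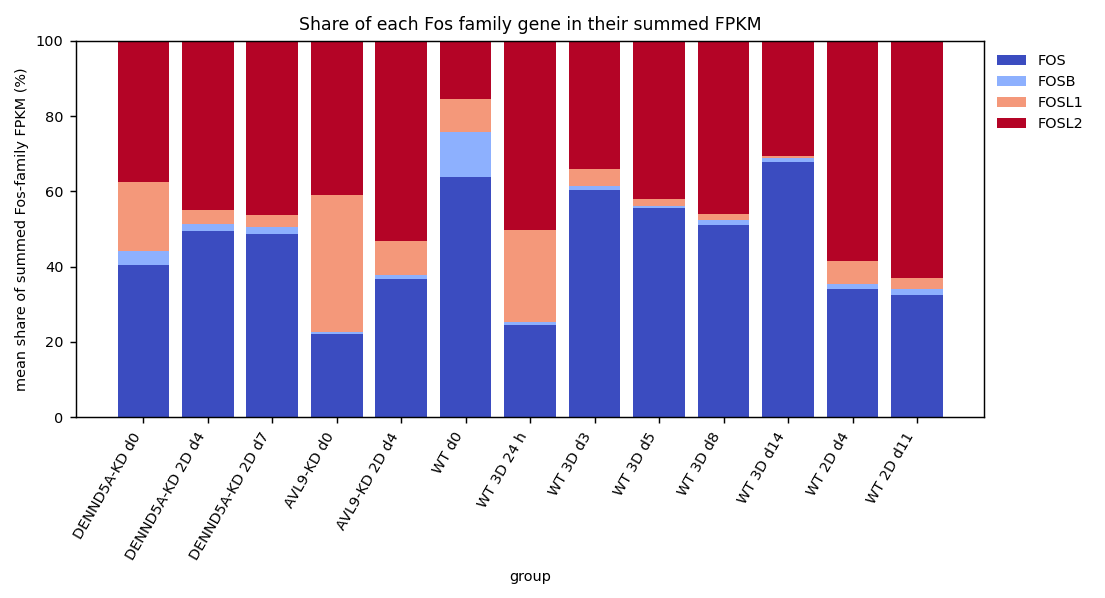
Mean share (%) of FOS, FOSB, FOSL1 and FOSL2 in the summed FPKM of the 4 genes in each of 13 groups, knockdown groups first. FOS holds 63.8% at wild-type day 0, and FOSL2 50.2% in 24 h cysts and 62.9% on inserts at day 11. FOSL1 has its largest share of the 13 groups in AVL9-KD day 0 cells (36.2%), where FOSL2 holds 41.0%.

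Over the 13 group means of log2(FPKM + 1), 3 pairs of members had a Pearson's r of 0.90 or more: FOSL1 with MYC (0.94), FOS with FOSB (0.92) and FOSL2 with JUN (0.90). Other high values cut across these pairs, among them IER2 with DUSP1 (0.83), JUNB with IER2 (0.81), IER2 with MYC (0.80) and FOS with DUSP1 (0.80). FOSL1 and EGR1 had r of -0.43. These are descriptions over groups that share library preparation and scaling. The members were also compared with 6909 genes averaging 5 FPKM or more, each with a name of its own and none a member. Of these, the genes most like FOS were TMTC3 (r = 0.68), MLLT10 (0.66), ZFP36, which codes for an mRNA decay protein (0.63), SCAF11 (0.62) and CLDN4, a tight junction claudin (0.59). Those most like JUN were the kinase WNK1 (0.96), LUZP1 (0.95), the tight junction scaffold TJP1 (0.95), the receptor MET (0.95) and PRRC2A (0.95). For FOSL1 they were NOC2L (0.99), TM4SF1 (0.99), WDR18 (0.98), the phosphatase PPM1G (0.98) and the kinase IRAK1 (0.98). For MYC they were PDCD11, needed for ribosomal RNA processing (0.98), the deubiquitinase USP10 (0.98), CAD, the enzyme that starts pyrimidine synthesis (0.97), NOL9 (0.97) and GFPT1, the entry enzyme of hexosamine synthesis (0.97). With the members left out, the genes nearest to FOS thus had lower r than those nearest to the other 3.

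Other AP-1 partners were called in shares near those of all genes in day 8 cysts. Of 6 tested genes among JUND, ATF2, ATF3, ATF7, BATF, BATF2, BATF3 and JDP2, limma called none at 24 h, with 1 at an unadjusted p under 0.05, and at 3D day 8 1 was higher and 3 lower than at day 0 (median -0.50, all genes -0.13), where 24.7% of all genes were higher and 38% lower. ATF3, a stress-induced AP-1 partner, averaged 6.82 FPKM in day 8 cysts and 19.7 FPKM at day 0 (-1.43 ± 0.24, adjusted p = 3.1e-05), and JUND 62.0 and 149 FPKM (-1.26 ± 0.16). JUND was also lower in day 8 cysts than on inserts at day 11 (62.0 and 171 FPKM, -1.46 ± 0.17), as was JDP2, a repressor of AP-1 (-1.34 ± 0.23). The same 2 partners were higher than in wild type in both knockdowns at day 0. BATF3 differed by 0.86 ± 0.22 in DENND5A-KD and 1.26 ± 0.22 in AVL9-KD cells, and ATF2 by 0.67 ± 0.12 in DENND5A-KD and 0.52 ± 0.12 in AVL9-KD cells. Of all genes, 3.27% were higher in DENND5A-KD and 13.4% in AVL9-KD cells, and both comparisons share the wild-type libraries. JUND was lower in DENND5A-KD cells at day 0 (98.8 and 149 FPKM, -0.59 ± 0.16).

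Of 18 other immediate early genes tested, 3 fell and none rose at 24 h (median -0.47, all genes 0.06), among them RHOB, a small GTPase (76.5 FPKM at 24 h and 185 FPKM at day 0, -1.25 ± 0.18), and the zinc finger factor KLF6 (-0.92 ± 0.21). Of all genes, 0.561% fell and 0.629% rose at 24 h, and this list too was chosen with earlier results known. In day 8 cysts 13 of the 18 fell, beside 38% of all genes, and 1 rose, beside 24.7%. The kinase PLK2 (-2.89 ± 0.29) and KLF6 (-2.73 ± 0.21) fell most, and SGK1, a kinase that promotes sodium uptake, was the one that rose (0.90 ± 0.20). On inserts the list went both ways, with 2 higher and 8 lower at day 4 and 5 higher and 7 lower at day 11 than at day 0. Of all genes, 30.3% were higher and 29.6% lower at day 4, and 32.2% higher and 23.7% lower at day 11. In AVL9-KD cells at day 0, 4 were higher and 4 lower than in wild type, beside 13.4% and 4.59% of all genes. In DENND5A-KD cells 1 was lower, TRIB1 (-0.70 ± 0.20), beside 2.25% of all genes. On inserts at day 4, 10 were higher and 2 lower in AVL9-KD cells, beside 18.7% of all genes higher and 2.34% lower, led by PLK2 (41.5 FPKM in AVL9-KD and 12.6 FPKM in wild-type cells, 1.70 ± 0.31) and IER5 (1.18 ± 0.34).

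Few genes of any kind were called at 24 h, 0.629% higher and 0.561% lower, and no tested gene of the following SRF and MAP kinase lists was among them. RNA levels do not measure the activity of the proteins, which was not tested. None of the 6 genes of serum response factor and its partners (SRF, ELK1, ELK3, ELK4, MKL1, MKL2), 9 MAP kinase genes or 11 MAP kinase phosphatases and feedback genes was called there by limma, and 3, 1 and 2 of them had an unadjusted p under 0.05. By day 8 in cysts 5, 9 and 8 of them were lower, beside 38% of all genes, led by ELK3 (-1.35 ± 0.11), the ERK-activated kinase RPS6KA3 (-1.26 ± 0.15) and the phosphatase DUSP4 (-2.18 ± 0.17). On inserts at day 11 the SRF genes were 3 higher and 1 lower than at day 0, the MAP kinases 1 higher and 2 lower, and the phosphatases and feedback genes 1 higher and 4 lower. Of all genes, 32.2% were higher and 23.7% lower there. At day 0, 1 of the 6 SRF genes, ELK4 (-0.70 ± 0.17), was lower in AVL9-KD cells than in wild type, and limma called none in DENND5A-KD cells, with 3 at an unadjusted p under 0.05. Of all genes, 4.59% were lower in AVL9-KD and 2.25% in DENND5A-KD cells at day 0. DUSP6, a phosphatase specific for ERK and commonly induced by it, averaged 29.1 FPKM in AVL9-KD and 9.42 FPKM in wild-type cells on inserts at day 4 (1.53 ± 0.17, adjusted p = 6.3e-06). It averaged 15.97 FPKM in DENND5A-KD cells there (0.70 ± 0.17, adjusted p = 0.0089), the 1 gene of its list called higher, and 2 were called lower than in wild type, DUSP10 (-0.86 ± 0.22) and DUSP7 (-0.53 ± 0.17). Of all genes, 5.54% were higher and 5.79% lower in that comparison. Of the EGR corepressors NAB1 and NAB2, NAB1 was lower in DENND5A-KD cells at day 0 (-0.55 ± 0.14) and higher in AVL9-KD cells at 2D day 4 (0.43 ± 0.14).

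Most genes known as AP-1 targets fell in cysts and on inserts. Of 11 tested, 9 were lower and none higher in day 8 cysts than at day 0 (median -1.45), beside 38% of all genes lower, led by LOX, the collagen cross-linking enzyme (-4.72 ± 0.36), and PTGS2, a prostaglandin synthase (-4.69 ± 0.35). On inserts 6 were lower and 2 higher at day 4, and 7 lower and 1 higher at day 11. Of all genes, 29.6% were lower and 30.3% higher at day 4, and 23.7% lower and 32.2% higher at day 11. In AVL9-KD cells at day 0, 6 of the 11 were higher than in wild type (median 0.95, all genes 0.11), beside 13.4% of all genes, and none was called lower, beside 4.59% of all genes. PTGS2 averaged 188 FPKM in AVL9-KD cells and 52.8 FPKM in wild-type cells (1.87 ± 0.35, adjusted p = 0.0011). In DENND5A-KD cells at day 0, 2 of the 11 were higher than in wild type, beside 3.27% of all genes, among them the protease PLAU (94.4 and 54.1 FPKM, 0.78 ± 0.22), and none was called lower, beside 2.25% of all genes. On inserts at day 4, 6 were higher in AVL9-KD cells, beside 18.7% of all genes, led by PTGS2 (2.30 ± 0.37) and PLAU (1.39 ± 0.23).

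MYC targets, like MYC, fell after 24 h. MXD4, which competes with MYC for its partner MAX, averaged 0.977 FPKM at wild-type day 0, 2.63 at 24 h, 6.43 at day 3, 8.34 at day 5 and 5.37 at day 8 in cysts, and 11.8 at day 4 and 11.1 at day 11 on inserts, and rose in each comparison with day 0. MXD4 is 1 of 8 tested genes of a MYC network list (MYCN, MYCL, MAX, MXD1, MXD3, MXD4, MXI1, MNT and MLX). In day 8 cysts 1 of the 8 was higher and 3 lower than at day 0, beside 24.7% and 38% of all genes. On inserts 3 were higher and 2 lower at day 4, beside 30.3% and 29.6% of all genes. At day 11 there 4 were higher and 1 lower, beside 32.2% and 23.7%. Of 8 MYC targets tested, limma called none at 24 h, with 2 at an unadjusted p under 0.05, 7 were lower at day 3, and all 8 were lower in day 5 and day 8 cysts and on inserts at day 4 and day 11. Of all genes, 23.1% were lower at day 3, 31.2% at day 5 and 38% at day 8 in cysts. On inserts 29.6% were lower at day 4 and 23.7% at day 11. SRM, an enzyme of polyamine synthesis, averaged 4.43 FPKM in day 8 cysts and 23.3 FPKM at day 0 (-2.12 ± 0.18). On inserts at day 4, where MYC was higher in AVL9-KD cells, 4 of the 8 were higher there than in wild type, beside 18.7% of all genes and a median gene higher by 0.19, led by RRS1, a ribosome assembly factor (17.7 and 8.12 FPKM, 1.04 ± 0.19), and FBL, an RNA methyltransferase of the nucleolus (0.52 ± 0.17). The counts of this list and of the lists above come from the fit reported and were not taken under the other scalings.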

How the data were processed

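Stranded mRNA libraries were made from total RNA of MDCKII cells, per the labels' protocols. The authors deposited 1 file of FPKM values per library, with 24223 Ensembl dog genes. Cufflinks 2.2.1, HISAT2 2.1.0 and 2 names of the dog genome build (CanFam3.1, canFam3) are listed per the submitters' processing notes, with no role for each. Scaling between libraries is not given in the sources used here, and read counts were not used, so absolute depth is unknown and no counting intervals are given.

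A limma 3.58.1 model (trend, R 4.3.3) of log2(FPKM + 1) had 1 mean per group over all 29 libraries, since groups of 1 to 4 share 1 estimate of spread. Tests of the 18 contrasts were 2-sided, adjusted by the Benjamini-Hochberg method over 11774 genes and called at an adjusted p under 0.05. The pipeline was tested on simulated data. Tables were read and figures drawn in Python 3.11.15 (pandas 2.3.3, numpy 2.4.6, matplotlib 3.10.9).

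The members and gene lists were chosen with earlier results of these data known, among them the low FOS, FOSB, EGR1 and DUSP1 at 24 h and the low immediate early genes in the knockdown day 0 cells. All 10 members are named. From each list, up to 2 called genes with the largest change in each direction per comparison may be named. For FOS, JUN, FOSL1 and MYC the 5 non-member genes most like them over group means are named. Fits with other scalings, pseudocount, filter, replicate blocks, a term for the 5 libraries that stood apart, and libraries left out were compared. Knockdown line numbers pair libraries of the same line across days, which the fit reported did not model. Deviations correlated with r of 0.36 for AVL9-KD and 0.01 to 0.10 for DENND5A-KD. With 2 libraries per group both lines give the same r, so each pair of days holds a single value. Sequences and coordinates were not used here. One gene of the AP-1 target list is counted but not reported here by name.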

Additional observations from a re-analysis of the deposited data

Results flagged for a closer look

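In 7 cases the log2 change between day 0 and day 4 on inserts differed between a knockdown line and wild type, by limma's interaction term with Benjamini-Hochberg adjustment. For DENND5A-KD the difference was 2.53 for FOS, 2.90 for FOSB and 1.78 for EGR1. For AVL9-KD it was 3.56 for FOS, 4.24 for FOSB, 3.67 for EGR1 and 2.13 for DUSP1. DUSP1 was not called in a fit of the compared groups alone (adjusted p = 0.128). In DENND5A-KD cells EGR1 was 0.79 higher at day 4 than at day 0, and in AVL9-KD cells 2.68 higher, while in wild-type cells it was -0.99. All 7 values hold the same 4 wild-type day 0 libraries, in which FOS and FOSB were above every other library. No control line was among the samples, and a cause was not tested. Among the 10 genes in wild-type day 0 cells, the 1 group with at least 4 libraries, no library lay far from the others by Dixon's criterion.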

How the results depend on the processing

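Of 2650 values of the 10 genes under alternative settings, 2538 kept their direction and side of the threshold, 74 lost the call, 38 gained it and no called value changed sign. A pseudocount of 0.1 changed no call of the 10 genes. The cause of the other changes was not tested, except that fewer libraries enter fits on the compared groups alone or with a library left out. Counts below are of genes called, unless they are of the 10 members.

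With quantile normalization the count was 220 at 24 h against day 0 (140 in the fit reported), 375 between 2D day 11 and day 4 (245), 2069 for DENND5A-KD at 2D day 4 (1334), 127 between DENND5A-KD day 7 and day 4 (6) and 459 for the DENND5A-KD interaction (215), and members called were 4 between 3D day 8 and 2D day 11, 2 for DENND5A-KD and 4 for AVL9-KD at 2D day 4. With median-ratio scaling these were 320 at 24 h, 89 between DENND5A-KD day 7 and day 4, 462 for the DENND5A-KD interaction and 4 members for AVL9-KD at 2D day 4. With the compared groups alone the count was 16 at 24 h, 2 between 2D day 11 and day 4, 400 for DENND5A-KD and 342 for AVL9-KD at day 0, 97 and 25 at 2D day 4 with 0 members each, 3502 with 2 members between AVL9-KD 2D day 4 and day 0, and 74 and 15 for the DENND5A-KD and AVL9-KD interactions. Between DENND5A-KD day 7 and day 4, a pseudocount of 0.1 gave 0, no filter 21 and a term for the 5 libraries that stood apart 23, and that term gave 386 between 2D day 11 and day 4.

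Of 41 pairs of wild-type libraries with the same number, 19 had r over 0.1 (range -0.16 to 0.56), so the numbers as a whole were not taken to pair the samples. Among the day 0, 2D day 4 and cyst (days 3 and 8) libraries numbered 1, which all stood apart, r was 0.40 to 0.56. The replicate block of the alternative fits still joined libraries of the same genotype and number, wild type included. With a random replicate block the count was 304 at 24 h, 520 with 1 member (FOSL2) between 2D day 11 and day 4, 76 between DENND5A-KD day 7 and day 4, 436 and 270 for the DENND5A-KD and AVL9-KD interactions, with 7 members for AVL9-KD and 0 members for DENND5A-KD at 2D day 4. With a fixed block it was 483 between 2D day 11 and day 4 and 14 between DENND5A-KD day 7 and day 4. Under the block IER2 at 24 h (adjusted p = 0.0463) and JUNB at 3D day 3 (0.0257 random and 0.0132 fixed) also passed. Beyond these and the knockdown calls given with their results, the block changed no call of the 10 genes.

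Leaving out 1 library at a time, the count ran from 17 to 149 at 24 h, 0 to 590 between 2D day 11 and day 4 (0 to 1 members), 3609 to 5128 between 3D day 8 and 2D day 11, 207 to 641 for DENND5A-KD and 745 to 2572 for AVL9-KD at day 0, 416 to 1217 (0 to 1 members) for DENND5A-KD and 1184 to 2493 (4 to 7 members) for AVL9-KD at 2D day 4. It ran from 3315 to 4187 (3 to 5 members) between DENND5A-KD 2D day 4 and day 0, with 2 to 5 members for AVL9-KD, 0 to 213 between DENND5A-KD day 7 and day 4, and 45 to 419 and 59 to 266 for the interactions of DENND5A-KD and AVL9-KD.

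The percent of called genes that were higher moved by over 10 points with scaling. It was 52.9 at 24 h, and 38.2 with quantile and 37.8 with median-ratio scaling. For 3D day 8 against day 0 it was 39.4, and 50.1 with median-ratio scaling. The triplets (reported, quantile, median-ratio) were 32.2, 47.8 and 49.9 for 3D day 8 against 24 h, 91.4, 67.7 and 74.5 for 2D day 11 against day 4, 23.6, 49.7 and 49.3 for 3D day 8 against 2D day 11, 74.5, 48.5 and 49.3 for AVL9-KD at day 0, 88.9, 53.1 and 50.5 for AVL9-KD at 2D day 4, 33.3, 14.2 and 12.4 for DENND5A-KD day 7 against day 4, and 80.6, 68.8 and 63 for the AVL9-KD interaction.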
